A study of Mus musculus with 30 samples.

Results

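The integrated stress response and amino acid genes described here are 10 genes, Atf4, Atf5, Ddit3, Trib3, Asns, Chac1, Psat1, Phgdh, Stc2 and Cth. These genes were taken by symbol from a list, which was chosen with earlier results of these data known. They are 10 of the 54232 gene IDs that every library lists, and each of the 10 matched an ID. In the integrated stress response, kinases that sense unfolded protein in the endoplasmic reticulum, amino acid shortage, viral RNA or haem shortage phosphorylate the translation factor eIF2. General protein synthesis then falls while translation of the Atf4 message increases, so the Atf4 protein is set largely at translation and need not follow its mRNA. ATF4 switches on genes for amino acid uptake and synthesis, and, with its partner CHOP (the Ddit3 product), genes tied to cell death. Beta cells, which make large amounts of proinsulin in the endoplasmic reticulum, are known to depend on the PERK branch of this response.

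The series measured RNA of pancreatic islets, the endocrine clusters that hold the insulin-secreting beta cells, from male wild-type C57BL/6N mice. Mice were exposed in vivo to vehicle (5 and 6 libraries) or to 1 mM cadmium chloride (4 and 5 libraries) for 6 or 18 weeks, and isolated islets were exposed for 96 hours in culture to vehicle (5 libraries) or 0.5 uM cadmium chloride (5 libraries), cadmium being a toxic metal that binds thiols. No source used here gives the route of dosing, the ages of the mice or whether the libraries of a group came from separate animals or cultures. The p-values therefore cover the library-to-library spread alone, and part of that spread could be technical. Total counts were 49564350 to 58366797 at 6 weeks, 9092759 to 51852364 at 18 weeks and 24197072 to 26549350 in culture, and 3 of the 18-week libraries (vehicle 4, vehicle 6 and cadmium 5) had fewer than 25000000.

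Levels are given as CPM, a gene's counts relative to its library's TMM-scaled total, and, where genes are compared with each other, as CPM per kilobase of exon. A gene rose or fell where the quasi-likelihood test of edgeR gave an adjusted p under 0.05 over all genes tested. The beta cell markers were present in every library and took up 12.8% to 24.9% of the counts. Markers of acinar cells, the enzyme-secreting cells that surround islets and can be carried over at isolation, took up 2.55% to 7.44% of the counts at 6 weeks, 0.233% to 16.9% at 18 weeks and 0.00222% to 0.00806% in culture. Of these 24 acinar markers, Ctrc, Ptf1a and Amy2b had 0 counts in every culture library.

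On build GRCm38 the 10 genes lie on 8 chromosomes, and only Trib3 with Chac1 (chromosome 2) and Phgdh with Cth (chromosome 3) share one. Trib3 lies at chr2:152337422-152344032 on the minus strand and Chac1 at chr2:119351229-119354381 on the plus strand, and Asns lies at chr6:7675169-7693254 on the minus strand. Exons of Ddit3 overlap 68 bases of Mars on the opposite strand, and exons of Atf5 overlap 82 bases of Nup62 and Il4i1 on the opposite strand. Another gene ID named Ddit3 shares 105 exon bases on the same strand and had 0 counts in all libraries. Whether reads were counted by strand, and how reads shared between genes were treated, is not given in the sources used here. A small part of the Ddit3 and Atf5 counts could therefore belong to these neighbouring genes or be missing.

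ATF4 binds DNA together with C/EBP proteins at the amino acid response element, whose core letters TGATGNAA (TTNCATCA on the other strand) were looked for on both strands in RefSeq promoter windows of GRCm38.p6, which run from 250 bases before a gene start to 50 after it. For 9 of the 10 genes (not Cth) 11 windows were found, and 3 of the 11 windows (1 each of Chac1, Asns and Trib3) held the letters, as did 3.97% of all 32851 windows. The stretches that hold them are shown because Trib3 and Chac1 were the pair with the highest correlation among the 10 genes, and Asns is a long-studied target of ATF4. They run 5′ to 3′ on the gene's strand, with the matching letters in capitals.
Chac1: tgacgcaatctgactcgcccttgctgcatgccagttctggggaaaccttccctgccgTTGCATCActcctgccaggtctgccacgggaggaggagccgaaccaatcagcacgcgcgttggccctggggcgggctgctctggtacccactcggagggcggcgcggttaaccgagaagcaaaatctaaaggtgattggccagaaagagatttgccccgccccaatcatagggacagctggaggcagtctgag
Asns: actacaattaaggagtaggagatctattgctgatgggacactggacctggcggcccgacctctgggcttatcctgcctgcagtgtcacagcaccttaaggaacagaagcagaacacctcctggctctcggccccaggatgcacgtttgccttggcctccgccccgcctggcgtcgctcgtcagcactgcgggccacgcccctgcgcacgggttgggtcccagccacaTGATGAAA
Trib3: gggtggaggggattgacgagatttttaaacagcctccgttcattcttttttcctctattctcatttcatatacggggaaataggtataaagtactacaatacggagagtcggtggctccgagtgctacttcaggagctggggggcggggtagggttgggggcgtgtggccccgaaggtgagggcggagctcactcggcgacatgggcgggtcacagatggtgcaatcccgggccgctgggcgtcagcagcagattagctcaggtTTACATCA

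RefSeq and the GENCODE gene bounds given above place the starts of these genes differently, so the match is located against both. The Chac1 stretch is chr2:119350992-119351241 (plus strand), and its match begins 193 bases before the RefSeq start (119351242) and 180 bases before the GENCODE start. The Asns stretch is chr6:7693225-7693459 (minus strand), and its match begins 23 bases before the RefSeq start (7693209) but 22 bases downstream of the GENCODE start, inside the gene. The Trib3 stretch is chr2:152344039-152344310 (minus strand), and its match begins at base 15 of the transcript that starts at the RefSeq start (152344060) but 14 bases before the GENCODE start. A match describes letters only, and binding was not measured here.

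The 10 genes spanned a wide range of abundance. Per kilobase of exon, in the vehicle libraries at 6 weeks, the median level was 98.4 CPM for Atf4, 93.9 for Atf5 and 53.9 for Asns, which encodes asparagine synthetase. Chac1, whose enzyme degrades glutathione, stood at 16.7 and Ddit3 at 11.6 CPM per kilobase. Psat1 and Phgdh, the enzymes that open the serine synthesis pathway, stood at 3.81 and 3.68, and Trib3, a pseudokinase that feeds back on ATF4, at 3.43. Cth, which makes cysteine from cystathionine, stood at 0.644 and Stc2, a secreted glycoprotein, at 0.260 CPM per kilobase. Stc2 was the gene read from the fewest counts, down to 1 in vehicle 4 and 1 in vehicle 6 at 18 weeks.

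**Figure D1:**
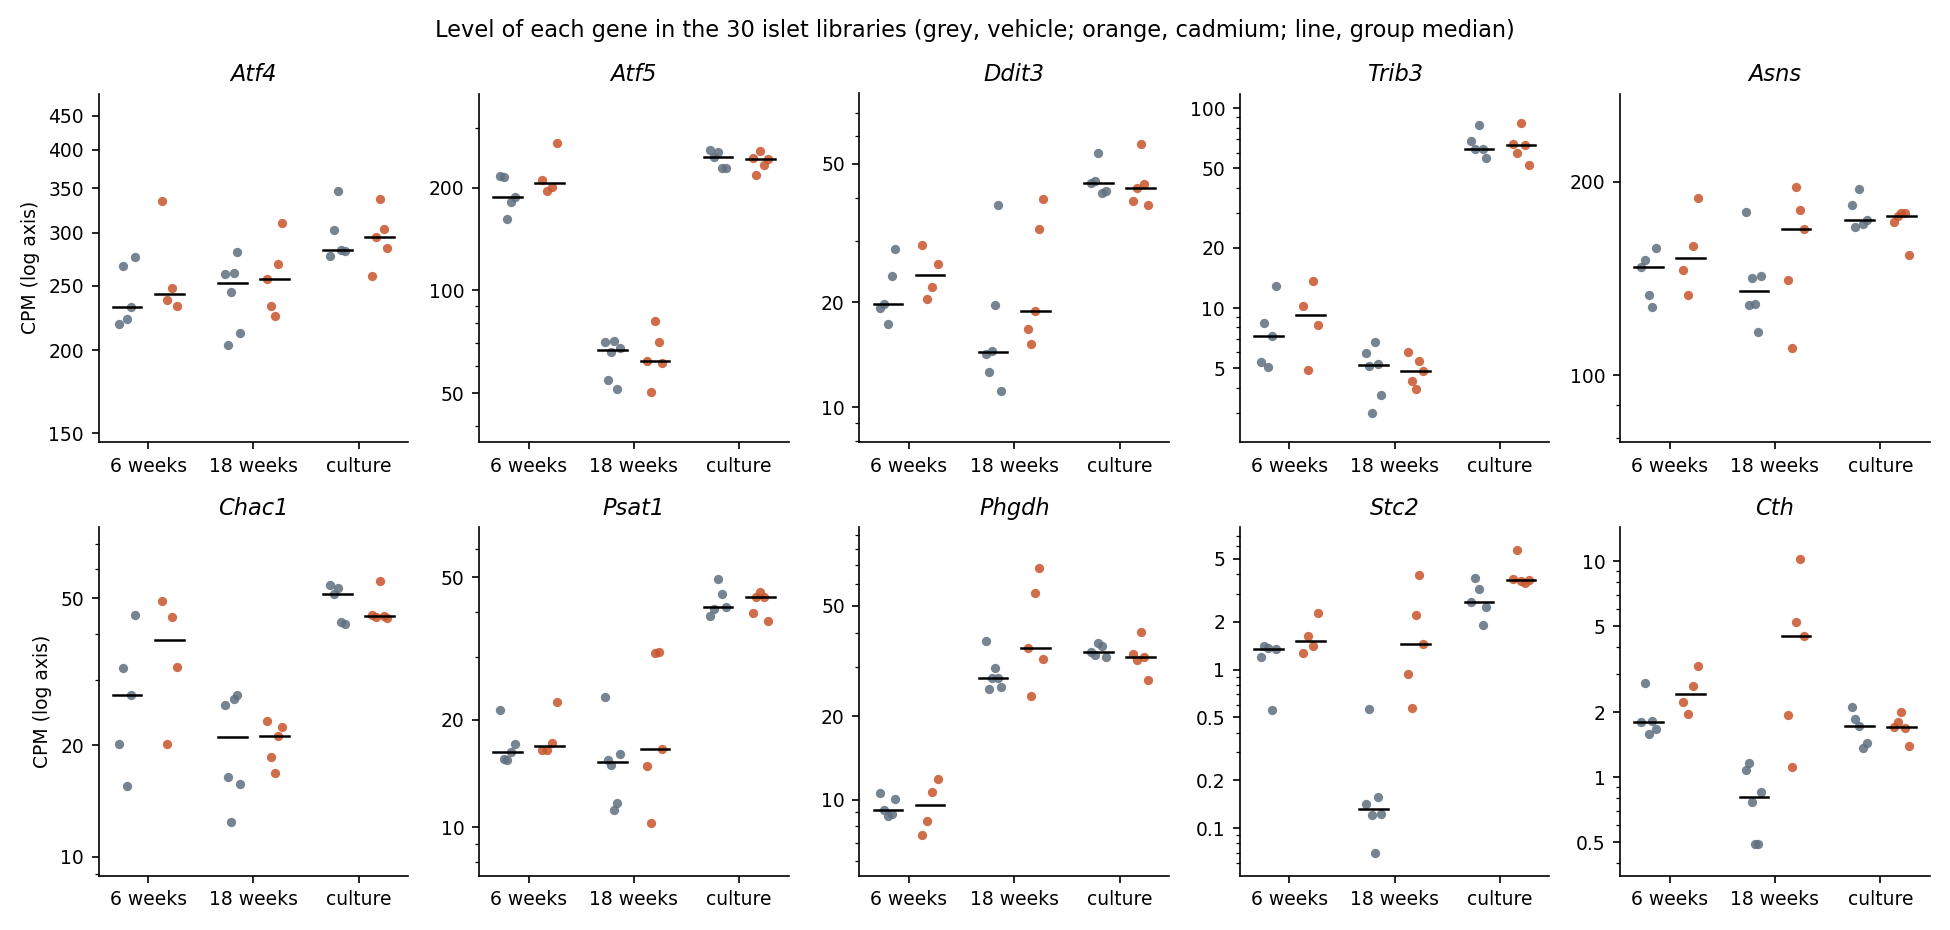
Level of each gene in CPM (log axis, its own scale per gene) in the 30 libraries, grouped by exposure, with vehicle in grey, cadmium in orange and the group median as a line. By group median, Trib3, Psat1 and Ddit3 stood highest in culture, Atf5 lowest at 18 weeks, Phgdh lowest at 6 weeks, and Stc2 and Cth lowest in vehicle at 18 weeks.

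Without cadmium, islets that had been cultured carried more of nearly all of these messages than fresh islets. Trib3 stood at 68.7, 62.8, 82.6, 62.8 and 56.6 CPM in the 5 cultured vehicle libraries. It stood at 5.37, 8.40, 5.06, 7.28 and 13 CPM in those of 6 weeks, and at 2.99 to 6.73 CPM (median 5.20) in the 6 of 18 weeks. Every cultured library was above every fresh one, and Trib3 rose by 3.10 ± 0.22 on the log2 scale (± SE) from 6 weeks to culture, an 8.60-fold difference (edgeR quasi-likelihood test, adjusted p = 7.79e-10). Against 6 weeks, 9 of the 10 genes rose in culture, where 53.8% of all genes tested changed, 25.9% upward and 28% downward. For 8 of the 9 the libraries did not overlap (Chac1 was the exception), as for 21.7% of all genes in that direction. Against 18 weeks all 10 rose, where 67.3% of all genes changed, 31.3% upward and 36% downward, and 7 of the 10 did not overlap (Atf4, Asns and Phgdh did), as for 22.6% of all genes. The median log2 difference of the 10 genes was 0.93 against 6 weeks and 1.25 against 18 weeks, beside -0.01 and -0.05 for all genes. Cell type markers moved in the same contrasts. From 6 weeks to culture 24 of 24 acinar markers fell (median -11.1) and 6 of 6 endothelial markers fell (median -3.45), while 4 of 7 stellate and fibroblast markers rose (median 0.73). From 18 weeks to culture 24 of 24 acinar and 6 of 6 endothelial markers fell, and 6 of 7 stellate and fibroblast markers and 7 of 9 macrophage markers rose (medians 2.32 and 0.69). Their part in the differences of the 10 genes was not tested.

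The other rises in culture were smaller than that of Trib3. From 6 weeks to culture Phgdh rose by 1.87, Psat1 by 1.34, Stc2 by 1.26, Ddit3 by 1.06 and Chac1 by 0.81 on the log2 scale. Atf5 rose by 0.34, Asns by 0.33 and Atf4 by 0.30. Cth, at 1.36 to 2.12 CPM in culture and 1.59 to 2.72 CPM at 6 weeks, did not pass (log2 difference -0.17, 95% interval -0.64 to 0.31, adjusted p = 0.560 by edgeR), and its sign turned to 0.06 when libraries were scaled by total counts. Scaling by total counts, an alternative chosen after seeing the data, moved the median of all genes in this contrast by 0.23. It changed no call on the 10 genes in the vehicle comparisons.

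The 2 groups of fresh vehicle islets differed from each other in 5 of the 10 genes, where 73.8% of all genes changed, 38.2% upward and 35.6% downward. Phgdh rose and did not overlap, as for 27.4% of all genes, and of the 4 genes that fell Atf5 and Cth did not overlap, as for 24.9% of all genes. Atf5, a transcription factor of the same family as ATF4, stood at 217, 214, 162, 181 and 187 CPM at 6 weeks and at 51.3 to 70.9 CPM (median 66.8) at 18 weeks. Every 18-week library was below every 6-week library, and Atf5 fell by 1.61 ± 0.09 on the log2 scale (adjusted p = 7.74e-12, edgeR). Phgdh went the other way, from 10.6, 9.14, 8.72, 8.90 and 10.05 CPM at 6 weeks to 25.1 to 37.4 CPM (median 27.4) at 18 weeks, with no overlap, a rise of 1.60 ± 0.09 (adjusted p = 8.84e-12, edgeR). Psat1, which catalyses the step after Phgdh, stood at 15.5 to 21.3 CPM at 6 weeks and 11.2 to 23.2 CPM at 18 weeks and did not pass (log2 difference -0.15, adjusted p = 0.356, edgeR).

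Stc2 fell by 2.34 ± 0.38 from 6 to 18 weeks in vehicle islets and Cth by 1.21 ± 0.23 on the log2 scale, the latter with every 18-week library below every 6-week one. Trib3 fell by 0.64 ± 0.22 (adjusted p = 0.0141, edgeR), and without vehicle 5 of the 6-week group its value of -0.39 did not pass (adjusted p = 0.0678). Leaving out 1 library brought 3 further genes past the threshold, Chac1 at -0.59 without vehicle 3 of 6 weeks, Psat1 at -0.29 without vehicle 1 of 18 weeks and Ddit3 at -0.58 without vehicle 5 of 18 weeks. The acinar share of the same vehicle libraries was 2.55% to 4.67% at 6 weeks and 0.233% to 1.63% at 18 weeks, and 24 of 24 acinar markers fell (median -2.17). Other cell types fell as well, with 9 of 9 macrophage markers (median -1.75), 7 of 7 stellate and fibroblast markers (-2.11) and 7 of 8 ductal markers (-1.96). The part of these markers in the differences was not tested. Age, length of exposure, culture, depth and the preparation of the libraries cannot be told apart between the 3 settings. In bulk RNA, fewer cells of a type and less RNA per cell cannot be told apart either.

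Taking the 6 groups in order of their medians, the genes differed in how far the groups spread. Atf4 ranged least among the 10, from a median of 232 CPM in vehicle at 6 weeks to 296 CPM in cadmium in culture, and each neighbouring pair of groups overlapped. Asns medians ran from 135 to 177 CPM and its neighbouring groups overlapped too. Ddit3, Trib3 and Psat1 each had 1 gap, between the culture groups and the next group below, cadmium at 6 weeks. Atf5 had its gap between vehicle at 6 weeks and vehicle at 18 weeks, Phgdh between vehicle at 18 weeks and cadmium at 6 weeks, and Cth between cadmium in culture and vehicle at 18 weeks. Chac1 and Stc2 had no gap between neighbours in the order of medians. A gap between neighbours did not always part the groups beyond them. Ddit3 in vehicle 5 and cadmium 5 of 18 weeks (38.12 and 39.53 CPM) lay above its lowest cultured library (38.11 CPM). Cth in cadmium 2 of 18 weeks (1.12 CPM) lay within the range of vehicle at 18 weeks (0.491 to 1.17 CPM).

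After 6 weeks of exposure, none of the 10 genes passed the test. The edgeR test called 0% of the 18080 genes tested, with 923 at an unadjusted p under 0.05, and DESeq2 called 11 genes and 0 of these 10. Fitted log2 differences were above 0 for 10 of the 10 genes with a median of 0.17, where 49.3% of all genes were above 0. The highest values were 0.48 ± 0.27 for Stc2, 0.39 ± 0.20 for Cth and 0.38 ± 0.31 for Chac1, with adjusted p of 0.919 for each.

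Library by library, the high values at 6 weeks belonged to different cadmium libraries for different genes. Atf4 stood at 219, 268, 222, 232 and 276 CPM in vehicle and at 335, 238, 248 and 233 CPM in cadmium, so 1 of the 4 cadmium libraries lay above all vehicle libraries. Without cadmium 1 the log2 difference of Atf4 went from 0.11 to -0.031. Chac1 stood at 20.2, 32.4, 15.5, 27.4 and 45.1 CPM in vehicle and at 49.3, 20.1, 44.5 and 32.5 CPM in cadmium. Trib3 stood at 10.3, 4.88, 13.6 and 8.18 CPM in the cadmium libraries, around the vehicle values given above. Chac1 and Trib3 were lowest in cadmium 2 and high in cadmium 1 and 3, and both ranges overlapped those of vehicle widely.

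Cadmium 4 at 6 weeks was the library with the highest level of Atf5, Asns, Psat1, Phgdh, Stc2 and Cth in its group. Psat1 stood at 16.4, 16.5, 17.2 and 22.5 CPM in cadmium, and the outer value was cadmium 4, while vehicle stood at 21.3, 15.6, 15.5, 16.2 and 17.1 CPM. Cth stood at 2.24, 1.96, 2.63 and 3.28 CPM in cadmium and at 1.80, 2.72, 1.59, 1.83 and 1.67 CPM in vehicle. The acinar share was 3.38%, 4.6%, 5.23% and 7.44% in cadmium 1 to 4, and 3.46%, 4.67%, 3.14%, 2.55% and 3.39% in vehicle 1 to 5. All 24 acinar markers had fitted differences above 0 at 6 weeks and 0 passed. With the acinar share as a covariate the log2 difference was -0.0034 for Atf5, -0.069 for Asns, -0.076 for Psat1, -0.24 for Phgdh and -0.00041 for Stc2. Without it these were 0.18, 0.12, 0.08, 0.01 and 0.48. The sign turned in these genes and not in Atf4, Ddit3, Trib3, Chac1 or Cth.

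**Figure D2:**
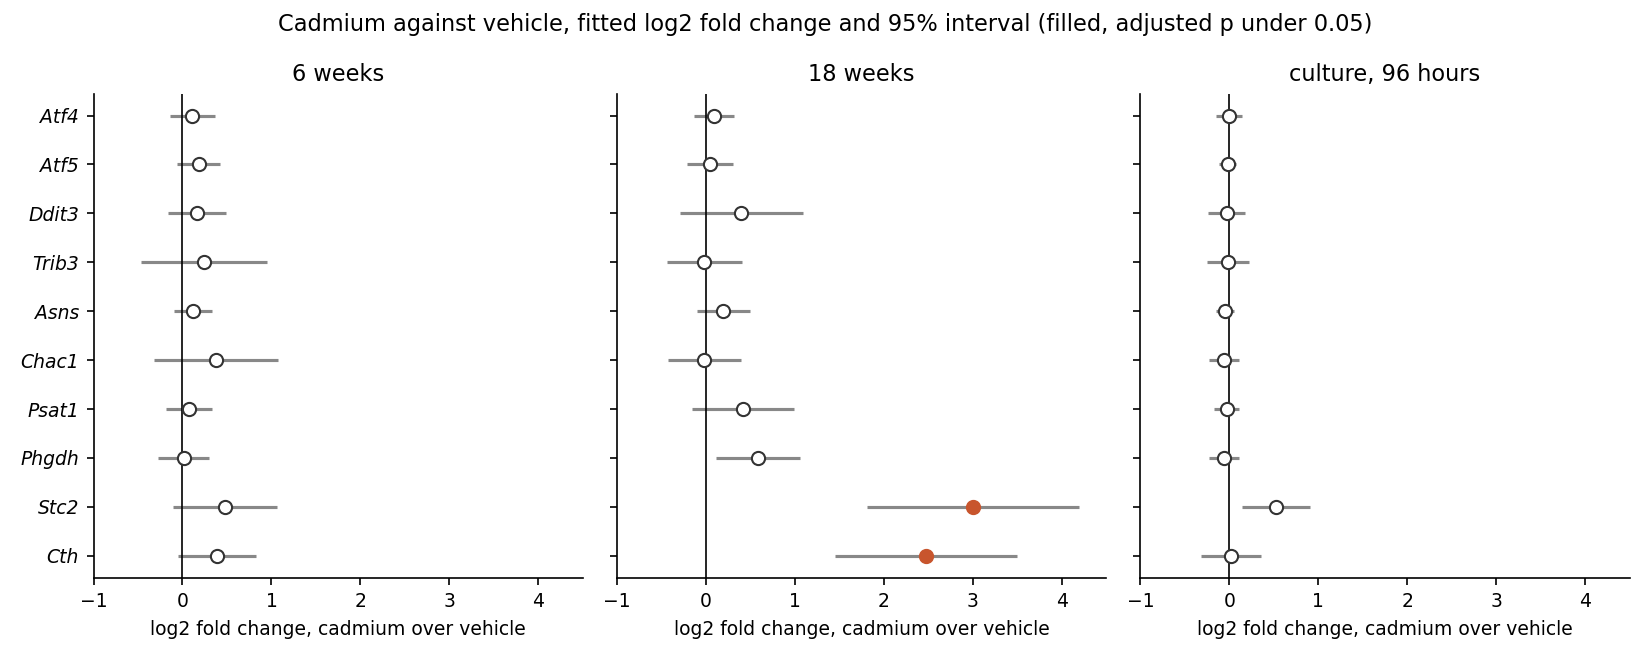
Fitted log2 fold change of cadmium over vehicle with its 95% interval for the 10 genes in the 3 settings (edgeR quasi-likelihood fit of each setting's 2 groups), filled where the adjusted p was under 0.05. Stc2 and Cth at 18 weeks are the 2 filled points, and the intervals in culture are the narrowest of the 3 settings for all 10 genes.

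After 18 weeks of exposure, Stc2 and Cth rose and the other 8 genes did not pass. The test called 0.359% of the 20911 genes tested, 0.344% of them as higher. Fitted differences were above 0 for 8 of the 10 genes, with a median of 0.30, where 50% of all genes were above 0.

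Stc2, which encodes stanniocalcin 2, a secreted protein induced by ATF4, stood at 0.143, 0.566, 0.120, 0.0701, 0.157 and 0.122 CPM in vehicle 1 to 6 and at 0.944, 0.576, 2.22, 3.96 and 1.46 CPM in cadmium 1 to 5. All 5 cadmium libraries lay above all 6 vehicle libraries, though cadmium 2 and vehicle 2 nearly met, and 0.937% of all genes lay apart in this direction. The log2 difference was 3.0 ± 0.55, 8.01-fold, with adjusted p = 0.0376 (edgeR). These values rest on few reads, 1 to 31 counts per vehicle library and 31 to 148 per cadmium library. Stc2 passed the filter on low counts through the cadmium libraries, since 5 of 5 of them and 1 of 6 vehicle libraries reached the minimum of 0.207 CPM, so a gene kept in this way had to differ.

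Cth, which encodes cystathionine gamma-lyase, the enzyme that yields cysteine in transsulfuration, stood at 1.08, 1.17, 0.770, 0.491, 0.491 and 0.855 CPM in vehicle 1 to 6 and at 1.95, 1.12, 5.21, 10.3 and 4.51 CPM in cadmium 1 to 5. Of the 5 cadmium libraries 4 lay above all vehicle libraries, and cadmium 2 lay within them. The log2 difference was 2.47 ± 0.48, 5.55-fold, with adjusted p = 0.0442 (edgeR). DESeq2 called both genes too.

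The share of counts of the 24 acinar markers moved with both genes. It was 0.605%, 1.63%, 0.683%, 0.233%, 0.603% and 0.807% in vehicle 1 to 6 and 3.01%, 1.42%, 8.02%, 16.9% and 5.56% in cadmium 1 to 5, and 22 of the 24 markers rose. Of the ductal markers 7 of 7 tested, and of the stellate and fibroblast markers 7 of 7, had fitted differences above 0 with medians of 1.44 and 1.43, and 0 of either passed. The order of the 5 cadmium libraries was the same by acinar share, by Stc2, by Cth and by Psat1. Vehicle 2 and cadmium 2, whose acinar shares of 1.63% and 1.42% were the closest between the groups, had 0.566 and 0.576 CPM of Stc2 and 1.17 and 1.12 CPM of Cth.

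With the acinar share as a covariate the log2 difference was 0.48 for Stc2 (adjusted p = 0.986, edgeR) and -0.13 for Cth, and the fit called 0 genes. Treatment and acinar share moved together at 18 weeks, and their parts in the 2 rises cannot be told apart. The part of the ductal and stellate markers was not tested. The calls on both genes were also lost without vehicle 1, 3, 4, 5 or 6 or without cadmium 3 or 4, with log2 differences of 2.5 to 3.77 for Stc2 and 1.94 to 2.73 for Cth over the 11 fits that each left 1 library out, and adjusted p up to 0.141. Without the 3 libraries under 25000000 counts they were 2.91 (adjusted p = 0.0732) and 2.40 (adjusted p = 0.08), and with limma-voom library weights 2.32 (adjusted p = 0.093) and 1.70 (adjusted p = 0.129).

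**Figure D3:**
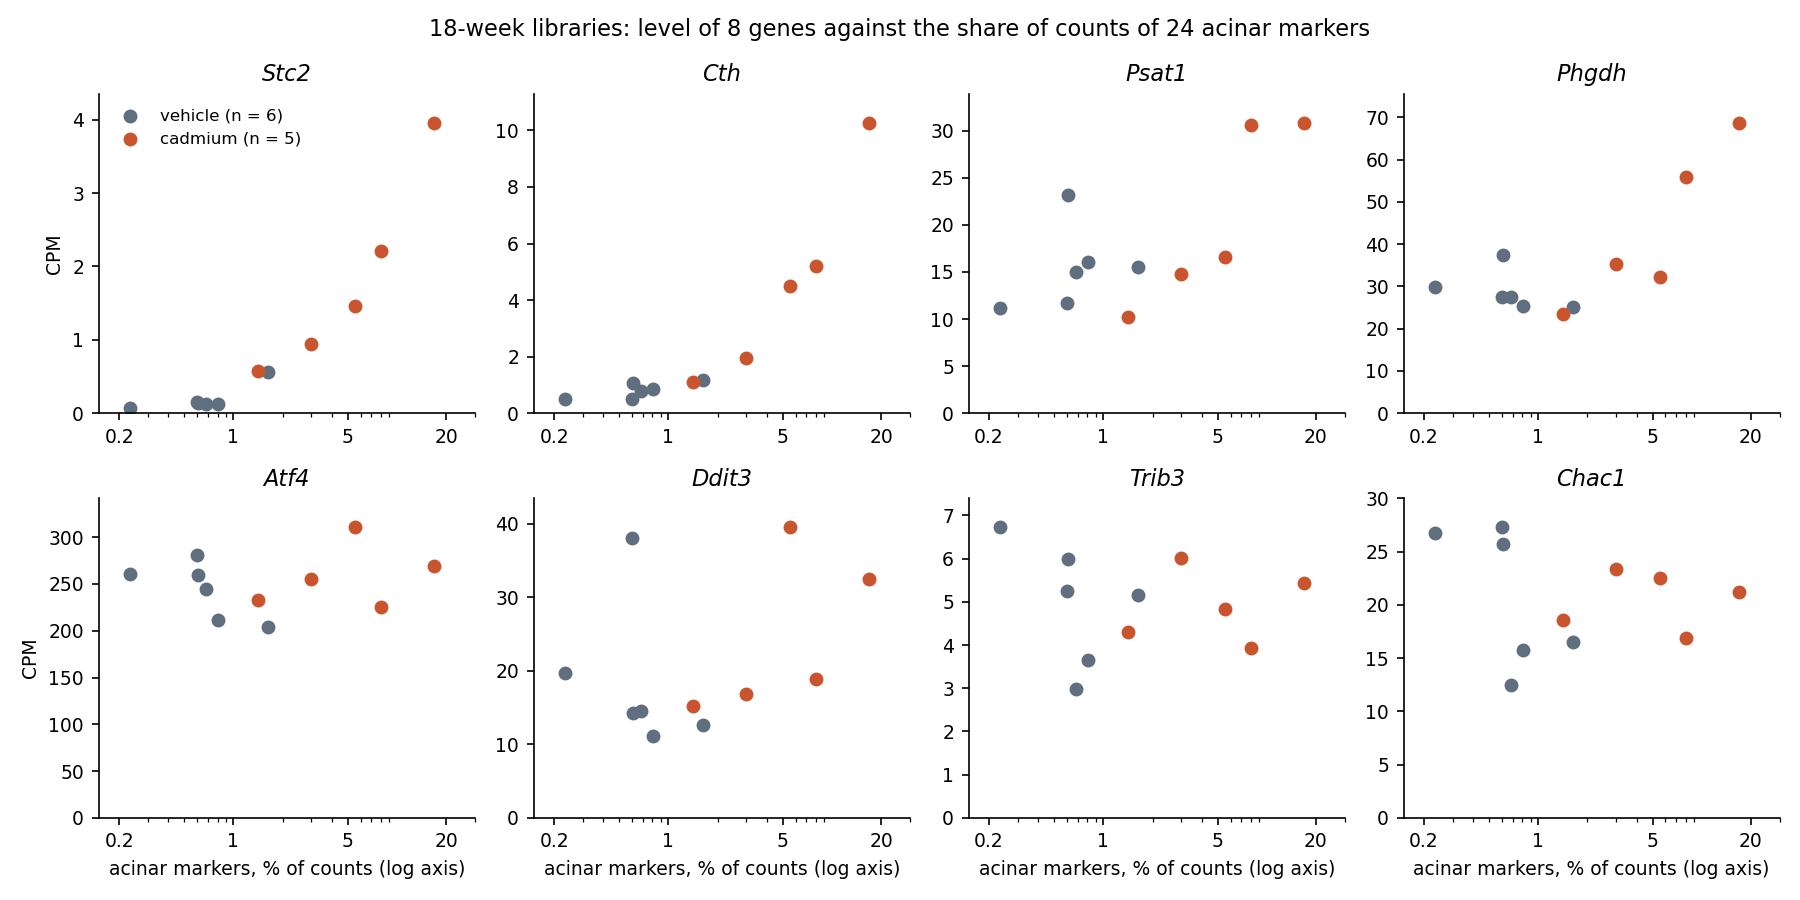
Level in CPM of 8 of the genes in the 11 libraries of 18 weeks (grey, 6 vehicle; orange, 5 cadmium) against the share of counts of the 24 acinar markers (log axis). Stc2, Cth, Psat1 and Phgdh were high in the 2 cadmium libraries with shares of 8.02% and 16.9%, while Atf4, Trib3 and Chac1 in those 2 libraries lay within the range of the others.

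The serine pathway genes had the next highest fitted differences at 18 weeks and did not pass. Phgdh, which oxidises 3-phosphoglycerate, stood at 37.4, 25.1, 27.4, 29.8, 27.4 and 25.4 CPM in vehicle and at 35.4, 23.6, 55.8, 68.7 and 32.2 CPM in cadmium. Psat1, the aminotransferase that follows it, stood at 23.2, 15.5, 15, 11.2, 11.7 and 16.0 CPM in vehicle and at 14.8, 10.3, 30.6, 30.9 and 16.6 CPM in cadmium. In each of these genes cadmium 3 and cadmium 4 lay above every vehicle library and cadmium 2 lay below every one. The log2 difference was 0.59 ± 0.22 for Phgdh (adjusted p = 0.203, edgeR) and 0.42 ± 0.27 for Psat1 (adjusted p = 0.401), and -0.24 and -0.79 with the acinar share as a covariate. In 1 fit of all 30 libraries, which called 2496 genes in this comparison, Phgdh passed at 0.58 (adjusted p = 0.0297). Asns stood at 117 to 179 CPM (median 135) in vehicle and at 141, 110.2, 196, 181 and 169 CPM in cadmium, with 2 cadmium libraries above all of vehicle and cadmium 2 below. Atf5 stood at 51.3 to 70.9 CPM (median 66.8) in vehicle and at 61.9, 50.3, 81.4, 70.8 and 61.3 CPM in cadmium, so cadmium 3 lay above all of vehicle and cadmium 2 below. Its log2 difference was 0.04, with a 95% interval of -0.22 to 0.30.

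Of the 10 genes, Stc2, Cth and Psat1 alone followed the order of the acinar share in the cadmium libraries of 18 weeks. Atf4, Ddit3, Trib3 and Chac1 did not, and neither did Atf5, Asns and Phgdh. Atf4 stood at 204 to 281 CPM (median 252) in vehicle and at 256, 233, 225, 269 and 311 CPM in cadmium. Its log2 difference was 0.09, with a 95% interval of -0.13 to 0.32. The signs of Atf4 and Atf5 turned when libraries were scaled by total counts (-0.032 and -0.090), which lowered the median of all genes by 0.13.

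Ddit3, which encodes CHOP, stood at 14.2, 12.7, 14.5, 19.7, 38.1 and 11.1 CPM in vehicle and at 16.8, 15.2, 18.9, 32.5 and 39.5 CPM in cadmium. Vehicle 5, cadmium 4 and cadmium 5 were high and the other 8 libraries lay at or below 19.7 CPM, so high values occurred in both groups. The log2 difference was 0.40 ± 0.32 (95% interval -0.30 to 1.1, adjusted p = 0.515, edgeR). Trib3 stood at 6.00, 4.31, 3.93, 5.43 and 4.84 CPM in cadmium and Chac1 at 23.3, 18.6, 16.9, 21.2 and 22.5 CPM, all inside the vehicle ranges of 2.99 to 6.73 and 12.4 to 27.3 CPM. Both log2 differences were -0.02, with 95% intervals of -0.44 to 0.40 for Trib3 and -0.43 to 0.39 for Chac1.

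In culture, 96 hours of cadmium left none of the 10 genes past the threshold, and 0.00597% of the 16743 genes tested were called (1 gene). An unadjusted p under 0.05 was given to 920 genes, and DESeq2 called 1 gene and 0 of these 10. Fitted differences were above 0 for 2 of the 10 genes with a median of -0.02, where 48.8% of all genes were above 0.

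The spread in culture was small, so the intervals are narrow. For Atf4, at 277, 303, 347, 282 and 282 CPM in vehicle and 258, 296, 337, 304 and 285 CPM in cadmium, the log2 difference was -0.01 with a 95% interval of -0.15 to 0.14. For Atf5 the interval was -0.12 to 0.08, and for Asns -0.16 to 0.05. Trib3 stood at 66.4, 59.9, 84.7, 65.8 and 52.1 CPM in cadmium, a range that covered that of vehicle (56.6 to 82.6 CPM), and its interval was -0.25 to 0.22. For Ddit3 it was -0.24 to 0.18 and for Chac1 -0.23 to 0.11. For Psat1 it was -0.17 to 0.11, for Phgdh -0.23 to 0.11, for Cth -0.32 to 0.35 and for Stc2 0.14 to 0.91.

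Stc2 was the gene with the smallest p of the 10 in culture. It stood at 2.66, 3.77, 3.24, 1.91 and 2.49 CPM in vehicle and at 3.72, 5.68, 3.62, 3.54 and 3.66 CPM in cadmium. Cadmium 2 lay above all vehicle libraries, and the other 4 cadmium libraries lay between vehicle 3 and vehicle 2. The log2 difference was 0.52 ± 0.18 (unadjusted p = 0.0106, adjusted p = 0.888, edgeR), and 0.37 without cadmium 2. Each cadmium library lay above the vehicle library of the same number. With a replicate block Stc2 passed, as given in the section on processing, but the numbers share no stated origin. The acinar markers took up 0.00222% to 0.00806% of the counts in these 10 libraries, 6 of the 24 could be tested and 0 passed. Stc2 in every cultured vehicle library was above every fresh vehicle library, none of which exceeded 1.41 CPM.

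The cadmium effect itself was compared between settings in 1 fit of all 6 groups. From 6 to 18 weeks it differed for Stc2, by 2.48 ± 0.59 on the log2 scale (adjusted p = 0.0350, edgeR), and for Cth, by 2.06 ± 0.51 (adjusted p = 0.0393), where 1.68% of all 22721 genes were called, 0.898% as higher. With scaling by total counts these were 2.27 and 1.86 with adjusted p = 0.0755 for both. Over the 30 fits that each left out 1 library, Stc2 stayed called in 19 and Cth in 14, with differences of 1.96 to 3.26 and 1.51 to 2.32, the lowest of both without cadmium 4 at 18 weeks (adjusted p = 0.0972 and 0.103). Both calls were lost without vehicle 1, 2 or 3 or cadmium 1, 2 or 3 of 6 weeks, and without vehicle 1, 3 or 6 or cadmium 3 or 4 of 18 weeks. That on Cth was also lost without vehicle 3, 4 or 5 or cadmium 1 or 4 of culture, where its adjusted p was 0.050 to 0.0527. The other 8 genes did not pass. The interval of the difference was -0.33 to 0.28 for Atf4, -0.97 to 0.43 for Trib3 and -1.08 to 0.26 for Chac1.

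Between culture and 18 weeks the effect differed by -2.44 ± 0.57 for Stc2 (adjusted p = 0.149) and -2.44 ± 0.51 for Cth (adjusted p = 0.0857) and did not pass in edgeR, which called 0.0176% of all genes. DESeq2, which called 199 genes, called both (adjusted p = 0.00824 and 0.00228). In edgeR both passed without cadmium 2 or 5 of 18 weeks, Stc2 without vehicle 2 and Cth without cadmium 1 of 18 weeks. Between culture and 6 weeks none of the 10 genes passed, edgeR called 0% of all genes with 760 at an unadjusted p under 0.05, and DESeq2 called 3 genes and 0 of these 10.

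The wider pathway was followed through 6 lists of 92 genes, all of them measured. In the 3 cadmium comparisons 0 of them passed in edgeR, with an unadjusted p under 0.05 for 3 at 6 weeks, 12 at 18 weeks and 3 in culture. These are 3.26%, 13% and 3.26% of the 92, beside 5.11%, 18.2% and 5.49% of all genes tested. Of the 18 eIF2 kinases, eIF2 subunits and regulators, 6 were above 0 at 6 weeks, 11 at 18 weeks and 6 in culture, with medians of -0.03, 0.08 and -0.02. The smallest p belonged to Eif2b1 at 6 weeks (-0.08) and Eif2b4 at 18 weeks (0.26, adjusted p = 0.174, edgeR), both subunits of the exchange factor that recharges eIF2, and to Gcn1l1, an activator of the amino acid sensing kinase, in culture (-0.07).

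Among 13 partner factors and signalling targets, 12, 10 and 11 were above 0 in the 3 comparisons, with medians of 0.18, 0.22 and 0.09. Bbc3, a cell death activator, had the smallest p at 6 weeks (0.32, adjusted p = 0.919) and in culture (0.22, adjusted p = 0.888). At 18 weeks it was Fgf21, a secreted metabolic hormone and ATF4 target, at 3.13 ± 0.81 (adjusted p = 0.111, edgeR). Fgf21 stood at 0.0701 to 0.804 CPM (median 0.347) in vehicle and 0.0744 to 11.1 CPM (median 3.61) in cadmium, so the groups overlapped. In the same comparison 22 of 24 acinar markers rose (median 3.43), and their part in the Fgf21 difference was not tested.

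Of 9 amino acid transporters, 8, 7 and 4 were above 0, with medians of 0.21, 0.16 and -0.03. Slc7a11, which imports cystine, had the smallest p at 6 weeks (0.88 ± 0.28, adjusted p = 0.919). It stood at 0.917 to 2.44 CPM (median 1.18) in vehicle and 1.86 to 3.33 CPM (median 2.67) in cadmium. Slc1a5, a glutamine carrier, had the smallest p at 18 weeks (0.99 ± 0.23, adjusted p = 0.0831) and in culture (0.27, adjusted p = 0.888). Its cadmium effect was higher at 18 than at 6 weeks by 1.13 ± 0.28 (adjusted p = 0.0370, edgeR). Slc1a5 was the 1 gene of the 92 that passed in that contrast, where 1.68% of all genes were called, 0.898% as higher. In the same contrast 15 of 24 acinar markers were called as higher, and their part in the Slc1a5 difference was not tested.

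The enzymes, synthetases and chaperones had medians between -0.04 and 0.11, and in culture most genes of each list were below 0. Scaling by total counts raised the median of all genes in the culture comparison by 0.027, close in size to the culture medians of these lists. Of all genes tested, 49.3% at 6 weeks, 50% at 18 weeks and 48.8% in culture were above 0. Of 14 enzymes of amino acid synthesis and one-carbon metabolism 10, 11 and 4 were above 0 (medians 0.05, 0.11 and -0.03), and the smallest p belonged to Aldh1l2, a mitochondrial folate enzyme, at 6 weeks (0.21), to Cbs, which makes the cystathionine that Cth cleaves, at 18 weeks (0.36, adjusted p = 0.290), and to Aldh18a1, of proline synthesis, in culture (-0.08). Of 20 cytosolic aminoacyl-tRNA synthetases 10, 12 and 4 were above 0 (medians 0.002, 0.04 and -0.02), led by Gars (0.08), Kars (0.19) and Rars (-0.04). Of 18 endoplasmic reticulum chaperones and genes of the ATF6 and XBP1 arms 10, 9 and 1 were above 0 (medians 0.01, 0.003 and -0.04). In that list the smallest p belonged to Edem1 (0.10) and Sel1l (0.40, adjusted p = 0.217), which act in degradation of misfolded protein, and to the chaperone Hyou1 in culture (-0.10).

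Between cultured and 6-week vehicle islets the lists went different ways. Of the transporters 6 rose and 1 fell, of the synthesis enzymes 8 rose and 1 fell, and of the synthetases 12 rose and 2 fell, with medians of 0.40, 0.33 and 0.28. Of the partner factors and targets 7 rose and 2 fell (median 0.52), Fgf21 among the latter at -1.66. Of the eIF2 kinases, subunits and regulators 6 rose and 9 fell (median -0.14), and of the chaperones and ATF6 and XBP1 arm genes 1 rose and 10 fell (median -0.23), beside 25.9% and 28% of all genes. Slc7a11 rose by 2.91, while Sdf2l1, Manf and Creld2, proteins of the endoplasmic reticulum, fell by 1.12, 0.96 and 1.06 on the log2 scale. Total-count scaling moved all genes of this contrast up by 0.23, as given above.

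Around their group means, the 10 genes varied in 2 sets, seen in the data and described without a test. Correlations are Pearson's r of the deviations of log2 CPM from the group mean over 30 libraries, which share depth, cell makeup and scaling within a library. Atf4, Ddit3, Trib3 and Chac1 varied together, with r of 0.40 to 0.91 over their 6 pairs and a median of 0.60. Atf5, Asns, Psat1, Phgdh, Stc2 and Cth formed the other set, with r of 0.22 to 0.86 over 15 pairs and a median of 0.71. Over the 24 pairs between the sets r ran from -0.12 to 0.24, with a median of 0.05.

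**Figure D4:**
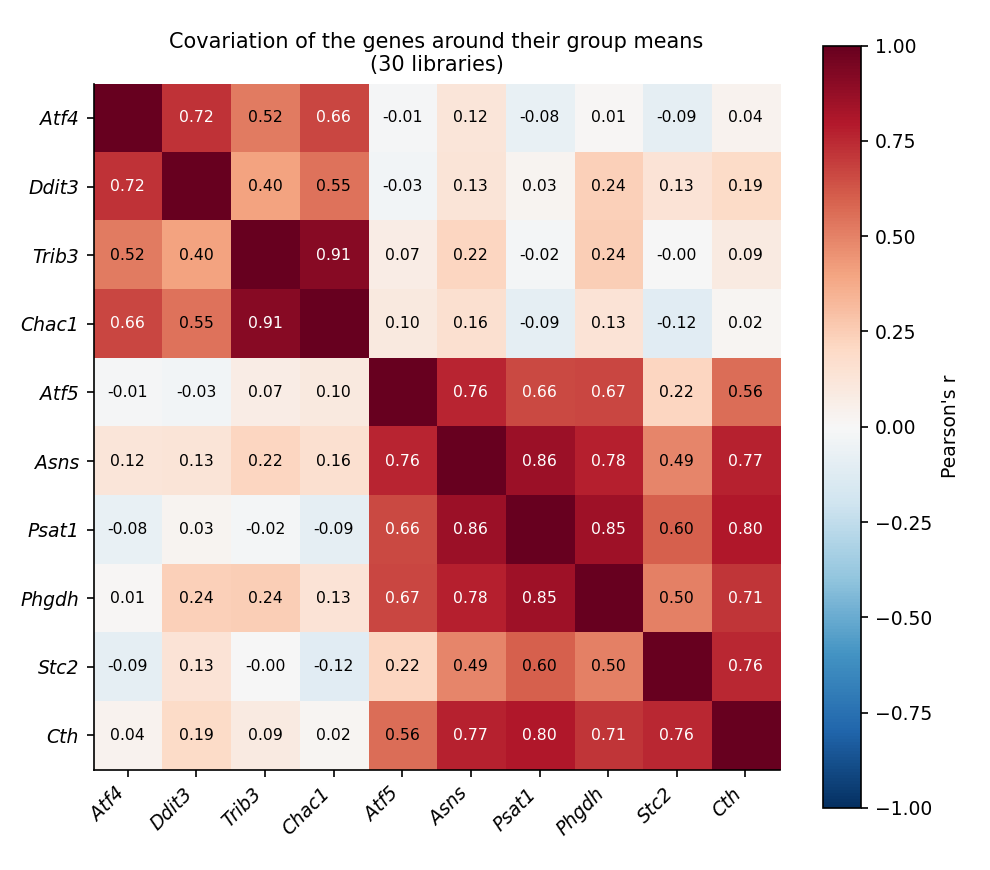
Pearson's r between the 10 genes over 30 libraries, computed on deviations of log2 CPM from the group mean. The upper left block (Atf4, Ddit3, Trib3, Chac1) and the lower right block (Atf5 to Cth) hold r of 0.40 to 0.91 and 0.22 to 0.86, and the blocks between them hold -0.12 to 0.24.

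Trib3 was most like Chac1 (r = 0.91), and Atf4 was most like Ddit3 (r = 0.72). Asns was most like Psat1 (0.86), Phgdh most like Psat1 (0.85), Cth most like Psat1 (0.80), Atf5 most like Asns (0.76) and Stc2 most like Cth (0.76). Without the 5 cadmium libraries of 18 weeks, the medians were 0.65 within the first set, 0.52 within the second and 0.01 between them. The ranges were then 0.48 to 0.91, -0.16 to 0.79 and -0.41 to 0.40, so the second set overlapped the pairs between the sets. In the 10 culture libraries, where acinar markers were near 0, the medians were 0.79, 0.34 and 0.56. The ranges there were 0.59 to 0.89, -0.12 to 0.70 and 0.05 to 0.89, so the sets were not separate. Trib3 and Chac1 had r of 0.95 over the 9 libraries of 6 weeks, 0.88 over the 11 of 18 weeks and 0.79 in culture.

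**Figure D5:**
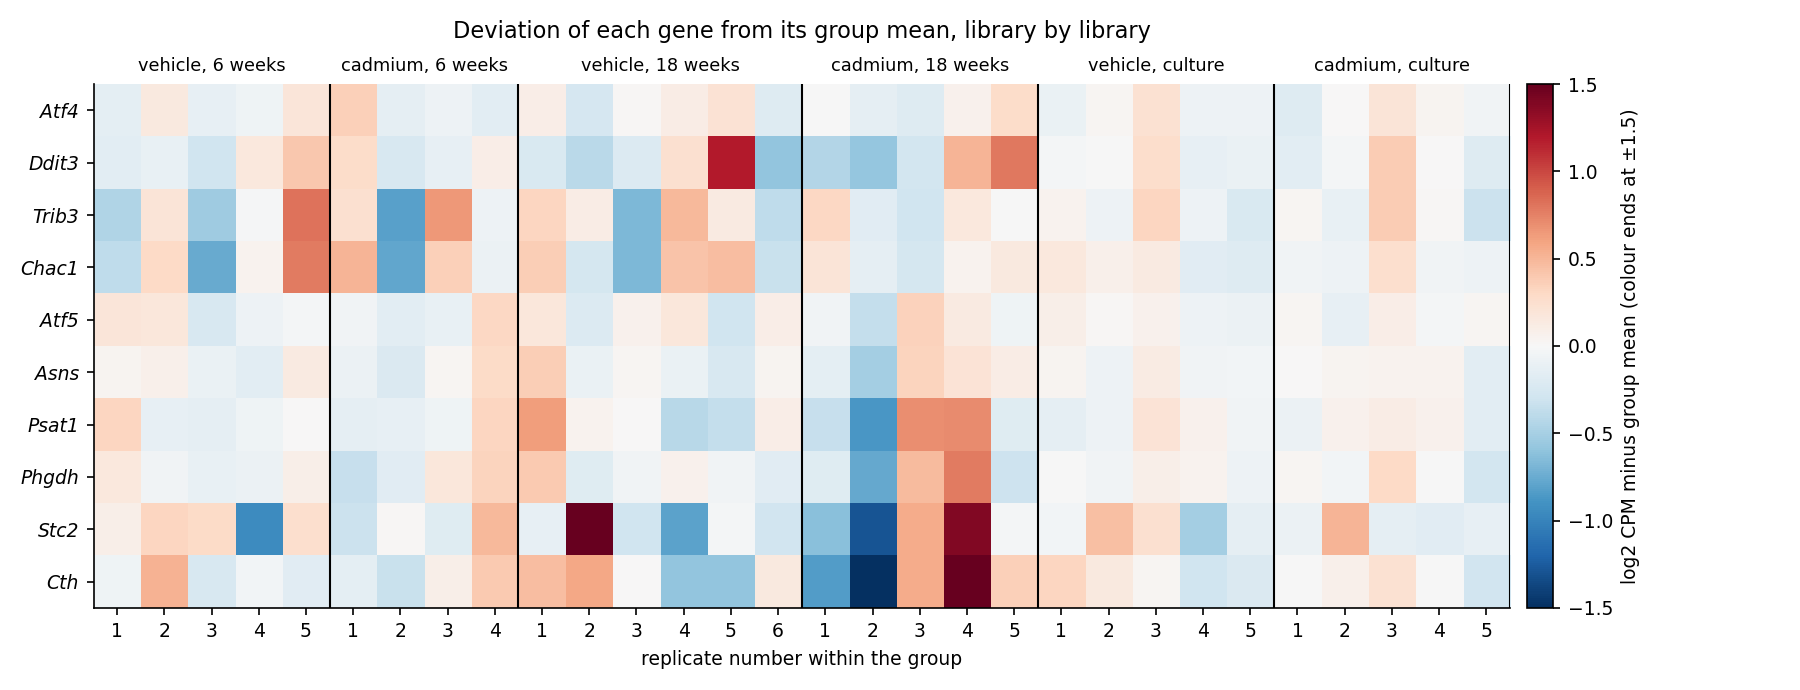
Deviation of log2 CPM from the group mean (colour) for each gene (rows) in each library (columns, replicate numbers within the 6 groups). At 18 weeks the lower 6 genes stood high in cadmium 3 and 4 and low in cadmium 1 and 2, while Ddit3 stood high in vehicle 5 and in cadmium 4 and 5.

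Single libraries carried much of this variation. At 6 weeks all 4 genes of the first set were above their group mean in vehicle 5 (mean deviation 0.55) and in cadmium 1 (0.35), and 0 of the 4 in vehicle 1, vehicle 3 and cadmium 2 (-0.28, -0.43 and -0.49). At 18 weeks all 4 were above it in vehicle 4 and 5 (0.32 and 0.50) and cadmium 4 (0.20), and in culture in vehicle 3 (0.23) and cadmium 3 (0.30). Of the second set, all 6 genes were above their group mean in cadmium 4 at 6 weeks (0.35), in cadmium 3 and 4 at 18 weeks (0.49 and 0.79) and in vehicle 3 in culture (0.13). In 6 libraries none of the 6 was above it, cadmium 1 and 2 at 18 weeks (-0.36 and -0.90), vehicle 4 and cadmium 1 at 6 weeks (-0.23 and -0.18), vehicle 5 at 18 weeks (-0.26) and vehicle 5 in culture (-0.10). The acinar share was 7.44%, 8.02% and 16.9% in the first 3 of these libraries, 0.00654% in the cultured one, and 3.01%, 1.42%, 2.55%, 3.38%, 0.603% and 0.00305% in the last 6. Its part in this variation was not tested.

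Outside the 10, the gene most like their mean profile was Nupr1, a stress-induced chromatin protein and a member of the list of partner factors (r = 0.83). It was followed, among 22711 other genes over 30 libraries, by Prdx4, a peroxiredoxin of the endoplasmic reticulum (0.79), Fut1, a fucosyltransferase (0.78), Tmem97, a membrane protein of sterol metabolism (0.77), and Ggh, a folate hydrolase (0.76). Nupr1 stood at 49.5 to 112 CPM (median 63.2) in vehicle and 48.4 to 413 CPM (median 134) in cadmium at 18 weeks and did not pass (log2 difference 1.44 ± 0.42, adjusted p = 0.138, edgeR). The mean profile averages the 2 sets and deviated most in cadmium 2 and cadmium 4 of 18 weeks (-1.91 and 1.48, standardized). Their acinar shares were 1.42% and 16.9%, and the part of the acinar share in these likenesses was not tested.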

How the data were processed

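The 30 libraries were grouped by their titles. The authors deposited raw counts for each Ensembl gene, without normalization. Per the submitters' processing notes, cutadapt 1.13, STAR, HTSeq 0.6.1p1, DESeq2 and build mm10 were used. The annotation release behind the counts, and whether strand was used, is not given in the sources used here. Symbols, lengths and coordinates came from GENCODE M21, and 54079 of 54232 IDs (99.72%) matched. Over 61 pairs of libraries within groups, 0 were identical.

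For each cadmium comparison its 2 groups were fitted alone with edgeR 4.0.16 in R 4.3.3 (filterByExpr with minimum count 10 and minimum total 15, TMM, quasi-likelihood test, Benjamini-Hochberg adjustment, threshold 0.05). Differences between settings used 1 fit of 6 groups, and the vehicle groups 1 fit of 3. The SE is the absolute log2 fold change divided by the square root of F. The script was tested on simulated data. DESeq2 1.42.0, limma 3.58.1 and other settings were alternatives. The members and lists were chosen with earlier results of these data known. All 10 members were named. From each list, the genes past the threshold were named (up to 3 per direction), or otherwise the 1 of smallest p.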

Additional observations from a re-analysis of the deposited data

Results flagged for a closer look

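The cadmium effect at 18 weeks differed from that at 6 weeks by 2.479 on the log2 scale for Stc2 and by 2.06 for Cth, in the edgeR test of the difference itself (adjusted p = 0.0350 and 0.0393). The median acinar share of counts was 3.39% in vehicle and 4.91% in cadmium at 6 weeks and 0.644% and 5.56% at 18 weeks, and its part in the difference was not tested.

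In 60 groups of libraries (10 genes in 6 groups), 11 single libraries lay apart from the rest of their group. This was measured as the gap to the nearest library over the whole range. With separate groups of normally distributed values about 1 in 20 would be flagged. The values here were CPM and the same libraries recur over correlated genes, so the 11 cannot be set against that rate. At 6 weeks, cadmium 1 was high in Atf4 (335 CPM, the others 233 to 248), vehicle 1 and cadmium 4 were high in Psat1 (21.3 CPM, the others 15.5 to 17.1, and 22.5 CPM, the others 16.4 to 17.2), vehicle 4 was low in Stc2 (0.559 CPM, the others 1.2 to 1.41), and vehicle 2 was high in Cth (2.72 CPM, the others 1.59 to 1.83). At 18 weeks, vehicle 5 was high in Ddit3 (38.1 CPM, the others 11.1 to 19.7) and vehicle 2 in Stc2 (0.566 CPM, the others 0.0701 to 0.157). In culture, vehicle 3 was high in Ddit3 (53.9 CPM, the others 41.3 to 44.6), cadmium 5 was low in Asns (154 CPM, the others 173 to 179), cadmium 3 was high in Chac1 (55.7 CPM, the others 44.2 to 45), and cadmium 2 was high in Stc2 (5.68 CPM, the others 3.54 to 3.72).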

How the results depend on the processing

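At 18 weeks the 2 called members (Stc2 and Cth) and the 75 called genes became 0 and 1 with a replicate block (Stc2 2.75 and Cth 2.09, adjusted p = 0.166 for both), 0 and 0 with the acinar share as a covariate, without libraries under 25000000 counts, and with limma-voom library weights. DESeq2 called 770 genes at 18 weeks, no filter 140, and the fit of all 30 libraries 2496. In culture the replicate block called 223 genes and 1 member (Stc2, 0.53, adjusted p = 0.0327), no filter called 7 genes and the fit of all 30 libraries 0. The numbers share no stated origin. Same-numbered libraries deviated together with correlations of -0.08 to 0.14 at 6 weeks, -0.09 to 0.28 at 18 weeks and 0.08 to 0.29 in culture. These were not all above 0.1 in any setting. In culture each cadmium library correlated best with the vehicle library of its own number, and of the vehicle libraries 2 and 3 did so in reverse. At 6 and 18 weeks not every cadmium library did. Whether the numbers mark a shared origin in culture cannot be told from the labels. At 6 weeks DESeq2 called 11 genes and the fit of all 30 libraries 1. For the difference between 18 and 6 weeks, no filter called 192 genes, DESeq2 1402, and total-count scaling 5 and 0 members. DESeq2 called 3 genes for culture minus 6 weeks, and 199 genes and 2 members for culture minus 18 weeks.

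Leaving out 1 library at a time gave 0 to 318 called genes and 0 to 2 called members at 18 weeks, 0 to 1694 genes and 0 to 2 members for 18 minus 6 weeks, 0 to 358 genes and 0 to 2 members for culture minus 18 weeks, 0 to 1 gene at 6 weeks and for culture minus 6 weeks, and 1 to 2 genes in culture. It gave 4 to 6 members for vehicle at 18 minus 6 weeks. The cause of these changes was not tested. Without the 3 shallow libraries fewer samples enter the fit.

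The sign of the log2 difference turned for these genes, of which Cth at 18 weeks had passed and the others had not. Total-count scaling, chosen after seeing the data, gave Phgdh -0.015 at 6 weeks, Atf4 -0.032 and Atf5 -0.090 at 18 weeks, Atf4 0.021, Atf5 0.0069 and Trib3 0.0079 in culture, Asns -0.040 in the effect at 18 minus 6 weeks, Atf4 0.053, Atf5 0.10 and Chac1 0.12 in the effect in culture minus 18 weeks, Atf4 0.092 and Asns 0.046 in vehicle at 18 minus 6 weeks, Cth 0.063 in vehicle in culture minus 6 weeks. The acinar covariate gave Atf5 -0.0034, Asns -0.069, Psat1 -0.076, Phgdh -0.24 and Stc2 -0.00041 at 6 weeks, Atf5 -0.13, Trib3 0.14, Asns -0.25, Chac1 0.31, Psat1 -0.79, Phgdh -0.24 and Cth -0.13 at 18 weeks, Atf4 0.0052 and Cth -0.054 in culture. Leaving out libraries under 25000000 counts gave Trib3 0.031 and library weights gave Chac1 0.074 at 18 weeks. Median-of-ratios factors gave Atf4 0.030 and DESeq2 gave Atf4 0.024 in vehicle at 18 minus 6 weeks. With 1 library left out at a time, genes that had not passed crossed 0, with ranges of Phgdh -0.11 to 0.11, Atf4 -0.031 to 0.16, Trib3 -0.012 to 0.50 and Psat1 -0.043 to 0.16 at 6 weeks. Ranges were Trib3 -0.14 to 0.081, Chac1 -0.14 to 0.080 and Atf5 -0.049 to 0.12 at 18 weeks. Ranges were Atf5 -0.046 to 0.0082, Atf4 -0.057 to 0.054, Ddit3 -0.14 to 0.042, Trib3 -0.12 to 0.072, Psat1 -0.061 to 0.026, Cth -0.049 to 0.11 and Phgdh -0.14 to 0.011 in culture. Ranges were Atf4 -0.11 to 0.11, Asns -0.027 to 0.17 and Ddit3 -0.037 to 0.58 in the effect at 18 minus 6 weeks. Ranges were Stc2 -0.11 to 0.24, Atf4 -0.17 to 0.013, Psat1 -0.20 to 0.013 and Phgdh -0.18 to 0.046 in the effect in culture minus 6 weeks. Ranges were Trib3 -0.091 to 0.16, Chac1 -0.13 to 0.11 and Atf5 -0.15 to 0.042 in the effect in culture minus 18 weeks. Ranges were Atf4 -0.039 to 0.058 and Asns -0.11 to 0.018 in vehicle at 18 minus 6 weeks.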
